A study of Mus musculus with 15 samples.

Results

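The genes described here are 44 genes of DNA replication and mitosis, 19 that act in S phase or at its entry and 25 that act in mitosis. They were chosen by symbol, and each symbol matched 1 row among the 54532 genes of the table. All 44 passed the filter on low counts and were tested. Each value comes from bulk RNA of mouse basal ganglia, so fewer cells of a type and less RNA per cell cannot be told apart.

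A dividing cell copies its DNA in S phase and separates the copies in mitosis. E2F transcription factors, released from retinoblastoma-family proteins when cyclin-dependent kinases act, switch on the replication genes, whereas many mitotic genes are held off by the DREAM complex through a promoter element called the CHR and are switched on later by B-MYB and FOXM1. Most neurons of the adult brain do not divide, and after injury the cells known to divide include microglia, oligodendrocyte precursors, astrocytes, vascular cells and invading leukocytes.

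The tissue was the ipsilateral basal ganglia of 15 wild-type mice in 3 groups of 5, and 1 poly-A RNA library per mouse was sequenced. Sham mice and mice with intracerebral haemorrhage (ICH) were gavaged with distilled water daily. Mice of the third group had ICH and were gavaged daily for 3 days with Nao Yi Kang decoction (NYKD), a herbal decoction, at 5.79 g/kg. Tissue was taken on day 3 after perfusion with saline. NYKD-M is the name of the treated group in the design text. The sources used here do not give the age of the mice or the way the haemorrhage was made, and none of the 3 groups received NYKD without a haemorrhage.

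Libraries held 13539203 to 19909140 counts, and the 44 genes took 0.0228% to 0.0363% of them in sham. Levels below are TMM-scaled CPM, a count relative to the library's size, listed in the order of replicates 1 to 5. ICH replicate 4 stood apart from the other ICH libraries: the 44 genes took 0.0381% of its counts, and 0.133%, 0.126%, 0.198% and 0.0854% of those of ICH replicates 1, 2, 3 and 5. The summed level of 8 microglial markers in it was 525 CPM (1108 to 1290 in the other ICH libraries, 521 to 668 in sham), and that of 7 oligodendrocyte precursor markers was 242 CPM (670 to 932 in the other ICH libraries, 516 to 720 in sham). The sum of 6 neutrophil markers in it was 539 CPM, against 45.4 to 55.9 CPM in the other ICH libraries. Its sum of 8 reactive astrocyte markers, 7063 CPM, lay inside the range of the ICH group, 6096 to 7376 CPM. The part of these differences in the results was not tested, and results that rest on this library are given with and without it. Ppp1r1b, a marker of the striatal neurons of the basal ganglia, averaged 1007 ± 466 CPM in sham (SD, n = 5).

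Promoters of both classes were compared by their letters, and 5 are printed to show how the classes differ. RefSeq promoters (GRCm38.p6, 250 bases before to 50 after the RefSeq start) were found for 36 of the 44 genes. The entries for Ccna2, Ccne2, Aurkb, Foxm1, Gins2, Kif20a, Mcm4 and Tpx2 were missing. For Cdc6, E2f1 and Mcm7 every RefSeq window lay wholly inside the gene as GENCODE M21 annotates it, as did 1 of the windows of Uhrf1 (5 windows in all), so those windows hold no base before the annotated gene start. Capitals mark 3 kinds of letters on either strand: E2F-type (TTTNGCGC or GGCGGGAA), CHR-type (TTTGAA or TTTAAA) and CCAAT, the letters that NF-Y recognises. Mcm5 (chr8:75109259-75109558, + strand) and Mcm6 (chr1:128359656-128359955, - strand) encode subunits of the replicative helicase. Cdc20 (chr4:118437294-118437593, - strand) and Cdk1 (chr10:69352863-69353162, - strand) act in mitosis. Ccne1 (chr7:38107441-38107740, - strand) controls entry into S phase. It was chosen by its result, as were E2f1 and Ccne2 it was not called in ICH against sham.
Mcm5: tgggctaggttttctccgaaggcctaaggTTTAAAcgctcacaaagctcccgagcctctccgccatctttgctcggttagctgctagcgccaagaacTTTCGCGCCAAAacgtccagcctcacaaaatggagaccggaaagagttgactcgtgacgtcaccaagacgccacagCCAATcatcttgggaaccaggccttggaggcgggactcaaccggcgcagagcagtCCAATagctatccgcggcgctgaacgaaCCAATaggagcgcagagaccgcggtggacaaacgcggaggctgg
Mcm6: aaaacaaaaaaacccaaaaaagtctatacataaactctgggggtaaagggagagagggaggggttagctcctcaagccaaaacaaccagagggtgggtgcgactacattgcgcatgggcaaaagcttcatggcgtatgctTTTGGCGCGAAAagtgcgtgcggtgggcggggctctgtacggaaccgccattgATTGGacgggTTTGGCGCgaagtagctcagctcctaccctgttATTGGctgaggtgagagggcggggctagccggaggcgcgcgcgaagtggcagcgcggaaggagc
Cdc20: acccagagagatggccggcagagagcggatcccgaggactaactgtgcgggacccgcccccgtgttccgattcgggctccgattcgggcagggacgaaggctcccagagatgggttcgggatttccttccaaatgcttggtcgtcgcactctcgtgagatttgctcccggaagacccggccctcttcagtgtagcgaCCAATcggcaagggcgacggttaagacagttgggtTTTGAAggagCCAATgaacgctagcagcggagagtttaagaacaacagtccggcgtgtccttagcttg
Cdk1: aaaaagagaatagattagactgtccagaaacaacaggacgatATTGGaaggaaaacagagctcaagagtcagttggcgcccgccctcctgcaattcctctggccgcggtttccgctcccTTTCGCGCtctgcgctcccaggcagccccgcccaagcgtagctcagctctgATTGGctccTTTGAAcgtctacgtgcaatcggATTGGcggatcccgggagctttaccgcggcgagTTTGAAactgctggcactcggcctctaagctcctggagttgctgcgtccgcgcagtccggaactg
Ccne1: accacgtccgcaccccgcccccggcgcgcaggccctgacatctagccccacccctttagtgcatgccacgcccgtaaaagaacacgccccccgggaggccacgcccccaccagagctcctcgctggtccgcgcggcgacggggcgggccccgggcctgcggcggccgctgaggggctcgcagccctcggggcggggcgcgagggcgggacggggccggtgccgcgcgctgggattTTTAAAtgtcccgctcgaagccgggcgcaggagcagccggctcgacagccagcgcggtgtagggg

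E2F-type letters stood in the RefSeq windows of 7 of 16 S-phase genes (43.8%) and of 1 of 20 mitotic genes (5%, Cdk1), against 3.99% of the 27025 genes with a RefSeq promoter. The CHR letters TTTGAA had the opposite split. They stood in 14 of 20 mitotic genes (70%) and in 1 of 16 S-phase genes (6.25%, Mcm2), against 20.2% of all genes. With TTTAAA counted too, the CHR-type share was 85% of mitotic genes (17 of 20) and 37.5% of S-phase genes (6 of 16), against 30.6% of all genes. CCAAT was found in 17 of 20 mitotic (85%) and 9 of 16 S-phase genes (56.2%), against 41.1% of all genes. With the 5 windows inside annotated genes left out, 13 S-phase genes remained, of which 6 held E2F-type letters (46.2%), 1 TTTGAA (7.69%), 5 CHR-type letters (38.5%) and 8 CCAAT (61.5%), and the mitotic counts were the same. In the Mcm6 promoter the E2F-type letters began at -110, -106 and -47 from the start, and the -110 and -106 matches overlap, as 5 pairs of matches do over all members. Cdc20 had TTTGAA at -18 between CCAAT at -53 and at -8. Cdk1 was the mitotic gene with both kinds, with E2F-type letters at -131 and TTTGAA at -71 and -15. In Ccne1 the search found TTTAAA at -15 and no other match. Tk1, which rose after ICH, also had TTTAAA alone, at -128. No E2F-type letters were found for Mcm2, Pcna, Rrm2, Tyms or Hells, which rose too, or for E2f1, which was not called. These are matches of letters, not tested binding sites.

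ICH was compared with sham to find the effect of the haemorrhage by day 3. Of the 44 genes, 41 rose and 0 fell: 16 of 19 S-phase genes and all 25 mitotic genes. The 3 that were not called were E2f1, Ccne1 and Ccne2, the members grouped here as control of entry into S phase. Across the 18052 tested genes, 12.4% were called higher and 4.58% lower (edgeR quasi-likelihood F-test, Benjamini-Hochberg adjusted p under 0.05). An unadjusted p under 0.05 was seen for 5617 of the tested genes. The median log2 fold change was 1.52 over S-phase genes and 2.51 over mitotic genes, against 0.045 over all tested genes. Among the genes that rose it ran from 0.78 for Mcm7 to 3.17 for Ccnb1, a range of 1.72-fold to 9.01-fold. All 5 ICH libraries lay above all 5 sham libraries for 17 of the 44 genes, 12 of them S-phase genes and 5 mitotic, against 8.03% of all tested genes. With ICH replicate 4 left aside this held for 42 of the 44, against 11.4% of all tested genes, and the exceptions were Ccne1 and Ccne2. Over the whole table, raised genes made up 73.02% of calls under TMM scaling, 64.18% under RLE and 83.4% under library totals, and the same 41 members were raised under each scaling.

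**Figure D1:**
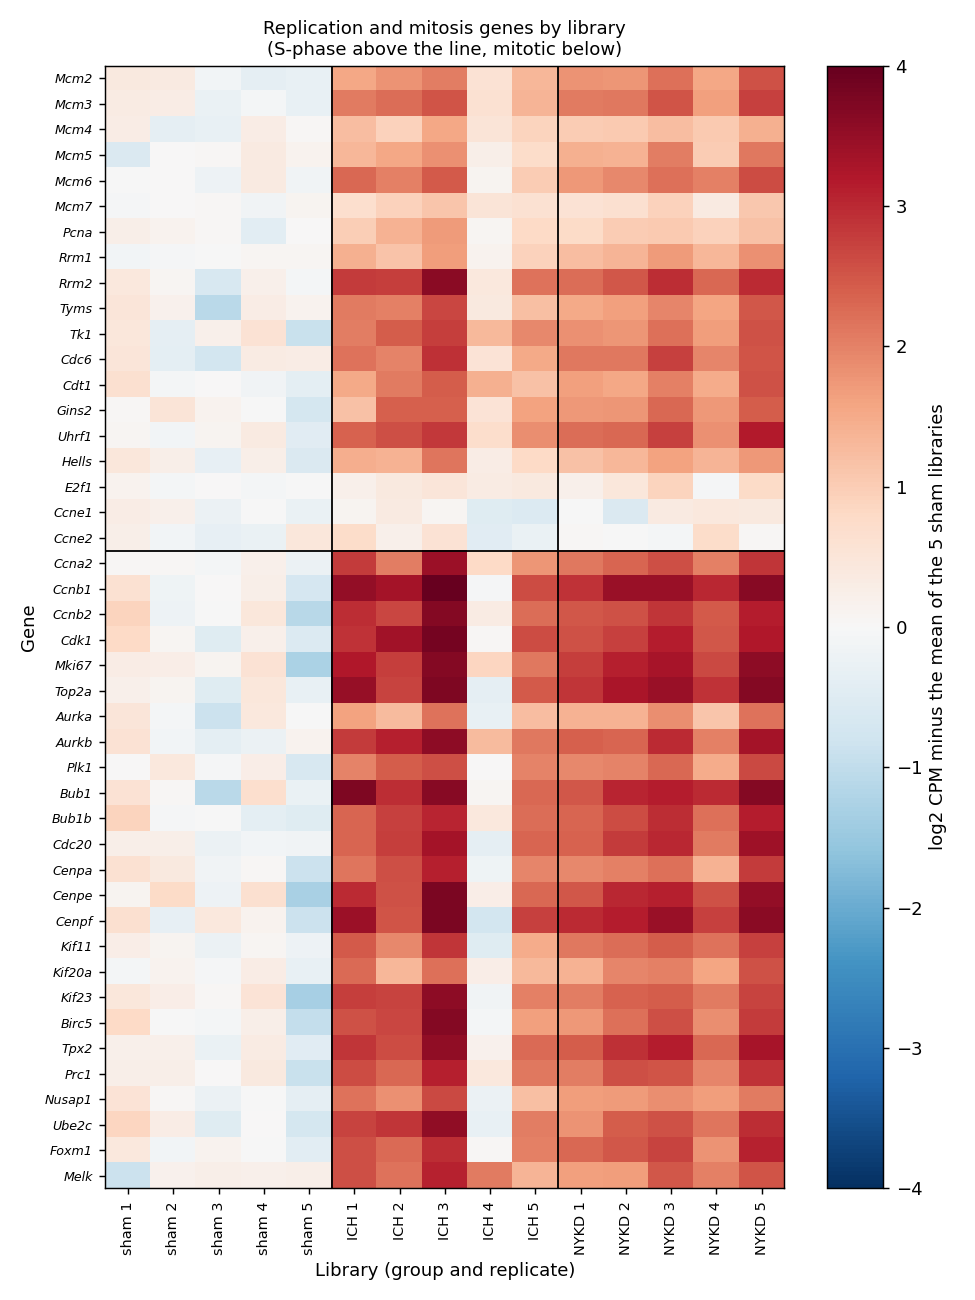
Level of each of the 44 genes (rows) in each of the 15 libraries (columns), as log2 CPM minus the mean of the 5 sham libraries for that gene; red is higher than sham and blue lower. The mitotic block below the line is darker red than the S-phase block above it in the ICH and NYKD libraries, the rows of E2f1, Ccne1 and Ccne2 stay pale, and the column of ICH replicate 4 is near sham.

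Per kilobase of exon, Pcna, the sliding clamp of DNA polymerases, had the highest level of the 44 genes in sham, 19.2 ± 3.01 RPKM (mean ± SD, n = 5). Mcm4 followed at 4.21 ± 0.901 RPKM and Mcm7 at 4.15 ± 0.272 RPKM, which did not differ beyond their spread. The lowest level was that of Cdc6, at 0.187 ± 0.0691 RPKM. After ICH Pcna remained the highest at 40.4 ± 16 RPKM, and next came Rrm2 at 15.4 ± 9.67 RPKM and Ccnb2 at 10.2 ± 6.57 RPKM. Mki67 and Top2a reached 9.75 ± 5.91 and 9.65 ± 6.43 RPKM, and with such spreads their order, and that of Rrm2 and Ccnb2, is not resolved.

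The MCM genes encode the 6 subunits of the helicase that unwinds DNA ahead of the replication fork, and all 6 rose. Mcm2 stood at 8.76, 8.68, 6.28, 5.2 and 5.46 CPM in sham, 19.7, 23.8, 28, 9.97 and 17 CPM after ICH and 23.7, 23, 31.6, 19.7 and 39.8 CPM with NYKD. Every ICH and every NYKD library lay above every sham library, ICH replicate 4 by the narrowest margin. The log2 fold change of Mcm2 was 1.52 ± 0.27 in ICH against sham (SE; adjusted p = 0.00105) and 2.0 ± 0.27 in NYKD against sham (adjusted p = 7.16e-05). Mcm3 had 8.82, 8.68, 5.83, 6.71 and 5.69 CPM in sham, 30.3, 33.8, 40.6, 10.9 and 18.1 after ICH and 29.9, 30.6, 40.4, 22.2 and 46.9 with NYKD, again with no overlap with sham. Its log2 fold changes against sham were 1.90 ± 0.30 for ICH (adjusted p = 0.000568) and 2.25 ± 0.31 for NYKD (adjusted p = 8.51e-05). Mcm5 (ENSMUSG00000005410, chromosome 8, 75109569 to 75128439) measured 6.35, 9.54, 9.86, 12.1 and 10.5 CPM in sham, 24.2, 27.8, 33.8, 11.1 and 15.9 after ICH and 25.7, 25.2, 39.7, 19.1 and 40.8 with NYKD. ICH replicate 4 fell inside the sham range, and the other ICH libraries and all NYKD libraries lay above it. For Mcm5 the log2 fold change was 1.22 ± 0.28 after ICH (adjusted p = 0.00729) and 1.64 ± 0.29 with NYKD (adjusted p = 0.000656). Mcm6 (ENSMUSG00000026355, chromosome 1, 128331590 to 128359664), whose promoter holds 3 E2F-type matches, rose by 1.82 after ICH (adjusted p = 0.00178), with ICH libraries from 10.3 to 52.7 CPM, a median of 38.9 CPM, and sham libraries from 8.2 to 12.2 CPM. Mcm4 rose by 1.05 and Mcm7 by 0.78 on the log2 scale.

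The clamp and the enzymes that supply nucleotides rose as a group, 5 of 5. Pcna measured 53.4, 49.9, 47.5, 34.3 and 45.8 CPM in sham, 90, 121, 147, 48.1 and 79 after ICH and 77.8, 92.8, 95, 87 and 103 with NYKD. In ICH replicate 4 it was inside the sham range, and every NYKD library was above it. Its log2 fold change against sham was 1.07 ± 0.22 after ICH (adjusted p = 0.00352) and 0.98 ± 0.22 with NYKD (adjusted p = 0.00468). Rrm1 encodes the large subunit of ribonucleotide reductase, which makes deoxyribonucleotides, and stood at 23.2, 24.2, 24.5, 26.4 and 26 CPM in sham, 67.2, 54.5, 79.8, 27.2 and 47 after ICH and 58.2, 63.6, 81.4, 61.9 and 87.6 with NYKD. No ICH or NYKD library overlapped sham, although ICH replicate 4 exceeded the highest sham library by less than 1 CPM. Rrm1 rose by 1.15 ± 0.21 after ICH (adjusted p = 0.00173). Rrm2, the small subunit, had the largest fold change of the S-phase genes. Its levels were 8.82, 7.03, 4.23, 7.63 and 6.33 CPM in sham, 46.6, 45.6, 82.2, 8.98 and 30.4 after ICH and 31.7, 37.2, 51.9, 32.9 and 52.9 with NYKD, with no overlap with sham and a spread after ICH from near the sham level to many times it. Against sham, the log2 fold change of Rrm2 was 2.65 ± 0.41 for ICH (adjusted p = 0.000568) and 2.60 ± 0.41 for NYKD (adjusted p = 0.000363).

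Thymidylate synthase and thymidine kinase 1 make the thymidine nucleotides of DNA. Tyms, the synthase, had 3.45, 2.74, 1.09, 3.03 and 2.67 CPM in sham, 10.7, 10.3, 16, 3.25 and 5.82 after ICH and 7.26, 7.89, 9.8, 7.56 and 14.3 with NYKD. Sham replicate 3 was low, ICH replicate 4 lay within the sham range, and the NYKD libraries were all above sham. Tyms rose by 1.83 ± 0.38 after ICH (adjusted p = 0.00354). Tk1, the kinase, stood at 4.13, 2.34, 3.52, 4.6 and 1.57 CPM in sham, 12.8, 16.8, 21.2, 7.63 and 11.9 after ICH and 11.1, 10.6, 14.4, 9.8 and 18.3 with NYKD. Here ICH replicate 4, too, was clearly above sham, and the log2 fold change after ICH was 2.12 ± 0.32 (adjusted p = 0.000342).

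Licensing factors load the helicase onto DNA or activate it, and 3 of 3 rose. Cdt1, which loads the MCM ring, was at 3.95, 2.34, 2.5, 2.24 and 1.86 CPM in sham, 7.28, 11, 14, 6.86 and 5.76 after ICH and 7.96, 7.59, 10.5, 7.24 and 15.1 with NYKD. For this gene ICH replicate 5, not 4, was the lowest ICH library, and no library overlapped sham. Cdt1 rose by 1.80 ± 0.30 after ICH (adjusted p = 0.00073) and by 1.91 ± 0.30 with NYKD (adjusted p = 0.00027). Cdc6, the partner of Cdt1 in loading, rose by 2.08 after ICH, and Gins2, part of the GINS complex of the active helicase, by 1.81. Of the chromatin factors, Uhrf1 recruits the maintenance DNA methyltransferase to newly copied DNA. It had 5.12, 4.51, 5.25, 6.31 and 3.49 CPM in sham, 25.3, 29.4, 35.1, 8.06 and 17.8 after ICH and 23.3, 24.2, 33.1, 17.4 and 44.6 with NYKD, with no overlap with sham in either group. The log2 fold change of Uhrf1 was 2.23 ± 0.34 after ICH (adjusted p = 0.000436) and 2.53 ± 0.34 with NYKD (adjusted p = 8.35e-05). Hells, a chromatin remodeller, rose by 1.32 after ICH.

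The remaining S-phase members were grouped as control of entry into S phase, and 0 of 3 were called in ICH against sham by edgeR. Of the 3, 0 had an unadjusted p under 0.05, and DESeq2 and limma-voom also called 0. In a related list of 22 G1 cyclins, E2F factors and pocket proteins, given below, 11 were raised. E2f1 (ENSMUSG00000027490, chromosome 2, 154559407 to 154569892), the transcription factor that switches on replication genes, measured 9.37, 7.94, 8.52, 8.02 and 8.25 CPM in sham, 9.78, 11, 11.9, 10.7 and 11.1 after ICH and 9.68, 11.7, 15.8, 8.07 and 14.4 with NYKD. Every ICH library, replicate 4 included, was above every sham library, but by a small margin, and NYKD replicate 4 lay within the sham range. Its log2 fold change was 0.37 ± 0.18 after ICH (adjusted p = 0.164) and 0.50 ± 0.18 with NYKD (adjusted p = 0.0509). That last p is close to the threshold: E2f1 passed without ICH replicate 4 (adjusted p = 0.0484), NYKD replicate 1 (0.0422) or NYKD replicate 4 (0.0156), and the p ran from 0.0156 to 0.153 when each library was left out in turn. Ccne1 (ENSMUSG00000002068, chromosome 7, 38097984 to 38107534) encodes cyclin E1, which with CDK2 drives entry into S phase, and stood at 12.1, 11.3, 8.33, 9.74 and 8.19 CPM in sham, 10.6, 12.6, 10.4, 6.93 and 6.67 after ICH and 9.68, 6.6, 12.5, 13.1 and 13 with NYKD. The groups overlapped, and ICH replicates 4 and 5 were below every sham library. The log2 fold change of Ccne1 was -0.08 ± 0.23 after ICH (adjusted p = 0.854) and 0.14 ± 0.23 with NYKD (adjusted p = 0.693). Ccne2, cyclin E2, had 12.8, 10.2, 8.71, 9.14 and 15 CPM in sham, 18.4, 12.7, 16.5, 7.92 and 9.15 after ICH and 11.3, 10.7, 10.4, 18.3 and 11.3 with NYKD. It overlapped in all 3 groups, with log2 fold changes against sham of 0.21 ± 0.25 for ICH (adjusted p = 0.599) and 0.15 ± 0.25 for NYKD (adjusted p = 0.703). A p above the threshold does not show equal levels. With ICH replicate 4 left out, the ICH values were 0.38 for E2f1, 0.02 for Ccne1 and 0.34 for Ccne2. Per kilobase of exon, Ccne1 and Ccne2 were among the higher members in sham, at 3.73 ± 0.663 and 3.19 ± 0.767 RPKM.

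**Figure D2:**
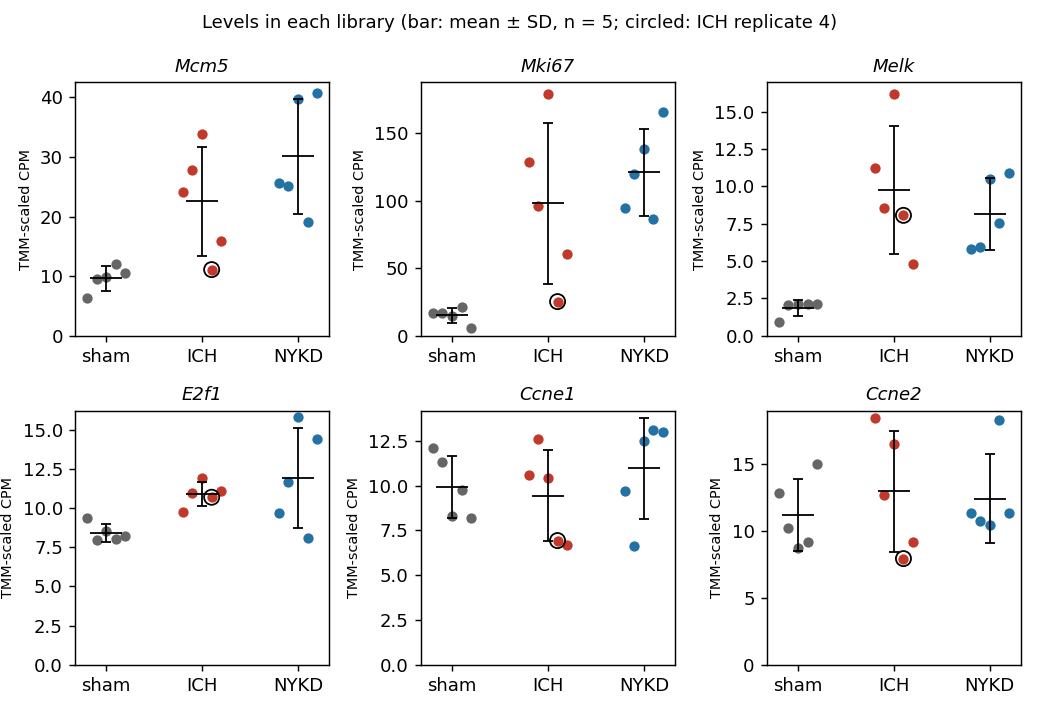
TMM-scaled CPM in each library for Mcm5, Mki67 and Melk (top) and E2f1, Ccne1 and Ccne2 (bottom), by group, with the mean and SD over 5 libraries as bars; ICH replicate 4 is circled. It lies at the sham level for Mcm5, just above it for Mki67 and well above it for Melk, and Ccne1 and Ccne2 overlap between groups.

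Among mitotic genes the cyclins and kinases rose, 9 of 9. Ccna2, cyclin A2, which acts from S phase into early mitosis, had 5.73, 5.66, 5.25, 6.31 and 4.71 CPM in sham, 39.4, 23.4, 60.3, 9.61 and 19.2 after ICH and 24.1, 28.2, 33.4, 22.7 and 40.3 with NYKD. No library of either group overlapped sham. Ccna2 rose by 2.46 ± 0.37 after ICH (adjusted p = 0.000399) and by 2.43 ± 0.37 with NYKD (adjusted p = 0.000219). Cdk1 (ENSMUSG00000019942, chromosome 10, 69335146 to 69352938), the kinase that starts mitosis, was at 5.61, 3.37, 2.24, 3.68 and 2.15 CPM in sham, 24.5, 34.2, 47.1, 3.32 and 20.3 after ICH and 19.4, 22, 29, 18.4 and 30.6 with NYKD. The ICH libraries other than replicate 4, which was inside the sham range, were at least 20.3 CPM. Its log2 fold change was 2.92 ± 0.49 after ICH (adjusted p = 0.000947) and 2.81 ± 0.49 with NYKD (adjusted p = 0.000774). Ccnb1, cyclin B1, the partner of CDK1, had the largest fold change of all members, 3.17 ± 0.52 after ICH (adjusted p = 0.000852) and 3.30 ± 0.52 with NYKD, with a range of 3.18 to 58.9 CPM after ICH and 2.03 to 5.12 CPM in sham. Ccnb2, cyclin B2, measured 4.38, 1.94, 2.24, 3.16 and 0.988 CPM in sham, 18.7, 15.3, 30.3, 2.9 and 11.3 after ICH and 13.2, 13.8, 17.2, 12.9 and 21.1 with NYKD. ICH replicate 4 again fell within sham, and the fold change of 2.63 ± 0.48 had an adjusted p of 0.00156. Reads of Ccnb2 may be shared with its pseudogene copy Ccnb2-ps, which held 1366 counts over the 15 libraries against 2769 of Ccnb2, so its level is uncertain.

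The Aurora and Polo-like kinases build the spindle and control its attachments. Aurka, Aurora A of the centrosome, was at 5.67, 3.83, 2.18, 5.46 and 4.01 CPM in sham, 12.4, 9.84, 18.5, 3.25 and 9.69 after ICH and 10.7, 10.8, 14.7, 8.78 and 18.6 with NYKD. It overlapped sham through ICH replicate 4 and had the smallest mitotic fold change, 1.34 ± 0.36 (adjusted p = 0.0181). This call was lost with limma-voom (adjusted p = 0.0546), without sham replicate 3 (1.18, adjusted p = 0.0515) and without ICH replicate 3 (1.05, adjusted p = 0.0627). Aurkb, Aurora B of the chromosomal passenger complex, stood at 2.4, 1.43, 1.15, 1.32 and 1.74 CPM in sham, 11.5, 14.3, 19.8, 3.96 and 7.15 after ICH and 8.73, 8.26, 13.1, 6.66 and 16.7 with NYKD. All ICH libraries lay above sham, replicate 4 included, and Aurkb rose by 2.81 ± 0.40 (adjusted p = 0.000249). Plk1, which triggers several steps of mitosis, measured 3.95, 5.2, 3.71, 4.67 and 2.44 CPM in sham, 15.5, 21.2, 23.8, 3.89 and 15.8 after ICH and 14.9, 15.8, 19.5, 11.1 and 25 with NYKD. Far below the other ICH libraries, replicate 4 was within sham. Plk1 rose by 2.0 ± 0.37 after ICH (adjusted p = 0.00156) and by 2.11 ± 0.37 with NYKD (adjusted p = 0.000662).

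Foxm1 encodes the transcription factor of late cell cycle genes and was at 5.73, 3.94, 4.74, 4.28 and 3.14 CPM in sham, 26.5, 20.9, 33.7, 4.45 and 17.9 after ICH and 21.3, 24.6, 28.8, 15.3 and 36.8 with NYKD. Apart from ICH replicate 4, which was at the sham level, the libraries of both groups lay above sham. Foxm1 rose by 2.24 ± 0.39 after ICH (adjusted p = 0.00109) and by 2.54 ± 0.39 with NYKD (adjusted p = 0.000272). Melk (ENSMUSG00000035683, chromosome 4, 44300876 to 44364675), a kinase of dividing cells, departed from this pattern. It had 0.925, 2.06, 2.11, 2.1 and 2.15 CPM in sham, 11.2, 8.57, 16.2, 8.06 and 4.79 after ICH and 5.84, 5.92, 10.5, 7.56 and 10.9 with NYKD. ICH replicate 4 was above every sham library and above ICH replicate 5. The log2 fold change of Melk was 2.38 ± 0.33 after ICH (adjusted p = 0.00023), the smallest adjusted p of the 44 genes in this comparison.

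Mki67 (ENSMUSG00000031004, chromosome 7, 135689784 to 135716361) encodes Ki-67, the coat protein of mitotic chromosomes used to stain dividing cells. Its levels were 17.1, 16.9, 14.9, 21 and 5.75 CPM in sham, 129, 96.2, 179, 25.3 and 60.8 after ICH and 94.4, 120, 138, 86.6 and 166 with NYKD. All ICH libraries were above sham, replicate 4 by the smallest margin, and sham replicate 5 was the lowest library. Mki67 rose by 2.70 ± 0.44 after ICH (adjusted p = 0.00081) and by 3.00 ± 0.45 with NYKD (adjusted p = 0.000224). Top2a, the topoisomerase that untangles chromosomes, had 13.4, 12.5, 8.13, 15.9 and 9.47 CPM in sham, 130, 76.3, 157, 8.91 and 63.4 after ICH and 84.7, 113, 126, 86.4 and 148 with NYKD. All ICH libraries but replicate 4, which was within the sham range, were at least 63.4 CPM. Top2a rose by 2.87 ± 0.51 after ICH (adjusted p = 0.00153).

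Of the genes of the spindle checkpoint and of the anaphase-promoting complex, which starts chromosome separation, 4 of 4 rose. Cdc20 (ENSMUSG00000006398, chromosome 4, 118432901 to 118437352), an activator of that complex, measured 3.21, 3.2, 2.24, 2.5 and 2.44 CPM in sham, 14.1, 18.8, 28.4, 2.05 and 14.1 after ICH and 14.4, 19.4, 22.8, 11.9 and 29.2 with NYKD. ICH replicate 4 was below every sham library, and all other ICH and all NYKD libraries were above sham. Cdc20 rose by 2.51 ± 0.46 after ICH (adjusted p = 0.00168) and by 2.84 ± 0.47 with NYKD (adjusted p = 0.000428). Bub1b, a checkpoint protein that restrains CDC20, stood at 5.8, 2.97, 3.01, 2.3 and 2.15 CPM in sham, 15.8, 21.1, 26, 4.1 and 14.7 after ICH and 15.9, 19.3, 24.5, 14.5 and 28 with NYKD, with ICH replicate 4 within sham. It rose by 2.33 ± 0.40 after ICH (adjusted p = 0.000921). Bub1, a checkpoint kinase, rose by 2.94, and Ube2c, the ubiquitin-conjugating enzyme of the complex, by 2.54.

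The centromere genes rose, 4 of 4, and so did the spindle and midzone genes, 6 of 6. Cenpa, the histone variant that marks centromeres, had 5.49, 4.68, 3.2, 3.68 and 1.92 CPM in sham, 16.2, 22.1, 32, 3.18 and 14.4 after ICH and 14, 15, 17, 9.61 and 25.5 with NYKD. Replicate 4 of ICH was within the sham range. Cenpa rose by 2.21 ± 0.45 after ICH (adjusted p = 0.00337). Birc5, survivin of the passenger complex, was at 3.58, 2, 1.92, 2.37 and 0.988 CPM in sham, 12.5, 13.6, 27.4, 1.91 and 6.48 after ICH and 7.02, 9.68, 12.6, 7.69 and 14.6 with NYKD, with ICH replicate 4 again inside sham. Its log2 fold change was 2.51 ± 0.52 after ICH (adjusted p = 0.00373) and 2.25 ± 0.52 with NYKD (adjusted p = 0.00543). Cenpe, a motor of the kinetochore, rose by 2.63 and Cenpf, a kinetochore protein, by 2.85.

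Kif11 encodes the motor that pushes the spindle poles apart and measured 6.6, 5.88, 4.67, 5.79 and 4.71 CPM in sham, 30.8, 21, 40.9, 3.89 and 15.5 after ICH and 24.1, 26.1, 30.2, 25.2 and 37.4 with NYKD. ICH replicate 4 was below every sham library, as for Cdc20. Kif11 rose by 2.02 ± 0.41 after ICH (adjusted p = 0.00297). Kif20a, a motor of the spindle midzone, stood at 3.51, 4.06, 3.52, 4.54 and 2.96 CPM in sham, 18.1, 9.36, 17.6, 4.45 and 9.27 after ICH and 9.79, 14.5, 15.3, 11.3 and 21.9 with NYKD, and Kif23, a motor needed for cytokinesis, at 3.51, 3.08, 2.63, 3.75 and 0.929 CPM, 18, 17.3, 31.7, 2.26 and 10.5 and 10.7, 13.6, 14.1, 11 and 17.1. Both overlapped sham through ICH replicate 4 alone. Kif20a rose by 1.66 ± 0.33 (adjusted p = 0.00236) and Kif23 by 2.52 ± 0.50 (adjusted p = 0.00274). Nusap1, which binds spindle microtubules, had 8.63, 6.06, 5, 5.79 and 4.53 CPM in sham, 27.1, 20.9, 37.4, 4.95 and 13.6 after ICH and 18.9, 19.3, 21.8, 19.1 and 24.9 with NYKD. It rose by 1.79 ± 0.37 after ICH (adjusted p = 0.00341), with ICH replicate 4 below all sham libraries but replicate 5. Tpx2, which activates Aurora A, rose by 2.62, and Prc1, which bundles midzone microtubules, by 2.30.

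The S-phase and mitotic classes moved by different amounts in the same libraries. As the class mean of log2 CPM minus the sham mean, the S-phase genes were higher by 1.49, 1.61, 1.99, 0.41 and 1.03 in ICH replicates 1 to 5, and the mitotic genes by 2.71, 2.50, 3.31, 0.15 and 2.02. In NYKD replicates 1 to 5 the S-phase genes were higher by 1.33, 1.37, 1.77, 1.31 and 1.95, and the mitotic genes by 2.20, 2.49, 2.74, 2.15 and 3.04. The mitotic mean exceeded the S-phase mean by 0.84 to 1.32 in 9 of the 10 ICH and NYKD libraries, and in ICH replicate 4 it was lower (difference -0.26). With E2f1, Ccne1 and Ccne2 left out of the S-phase mean, that mean was 0.53 in ICH replicate 4, while the other ICH libraries gave 1.25 to 2.29. The NYKD libraries gave 1.48 to 2.24. The excess of the mitotic mean was then smaller in each of those 9 libraries, and the mitotic mean was still the higher. In sham the class means lay between -0.19 and 0.22 for S-phase and between -0.55 and 0.39 for mitotic genes. No test of the difference between the classes was made, since their genes were chosen with results known.

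**Figure D3:**
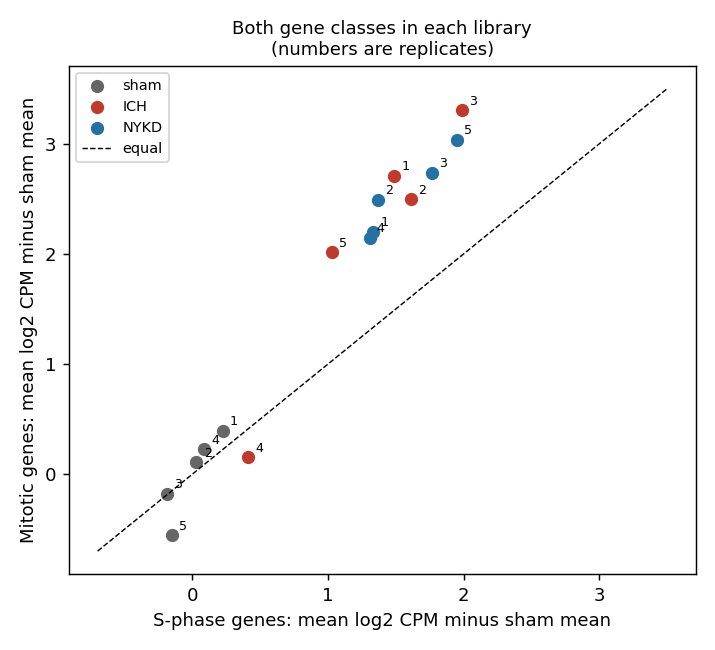
Mean log2 CPM minus the sham mean over the 19 S-phase genes (horizontal) and over the 25 mitotic genes (vertical), 1 point per library with its replicate number, coloured by group; the dashed line marks equal values. The ICH and NYKD libraries lie above the line, with mitotic minus S-phase differences of 0.84 to 1.32, except ICH replicate 4, which lies below it near the sham libraries.

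ICH replicate 4 was the lowest ICH library for 40 of the 44 genes, and ICH replicate 3 was the highest for 40. Replicate 4 lay above every sham library for 17 genes, 12 of 19 in S phase and 5 of 25 in mitosis, and below every sham library for 4, Ccne1, Ccne2, Cdc20 and Kif11. The other ICH libraries lay above every sham library for all 25 mitotic genes. Without replicate 4 the ICH against sham median was 1.69 for S-phase and 2.79 for mitotic genes, and the counts of raised genes were again 16 and 25.

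Markers of several cell types were also raised after ICH, though not always in the same libraries as the replication and mitosis genes. ICH replicate 4 was the lowest ICH library for most of those genes. Its neutrophil sum was the highest of the group, and its reactive astrocyte sum lay inside the group's range. In ICH against sham, 8 of 8 reactive astrocyte markers, 5 of 7 tested monocyte and macrophage markers, 5 of 5 tested neutrophil markers, 3 of 8 microglial, 4 of 7 endothelial and 3 of 8 pericyte and fibroblast markers were raised. Without ICH replicate 4 the counts were 8 of 8 reactive astrocyte, 5 of 7 monocyte and macrophage, 3 of 5 neutrophil, 5 of 8 microglial, 5 of 7 endothelial and 5 of 8 pericyte and fibroblast markers, and limma-voom on all libraries raised 3 of 5 neutrophil and 2 of 8 pericyte and fibroblast markers. Of 7 oligodendrocyte precursor markers 0 were raised by edgeR, DESeq2 or limma-voom, and without ICH replicate 4 the count was 3. In edgeR 2 of the 7 had an unadjusted p under 0.05, beside 5617 of all 18052 tested genes. Of 9 neural stem cell and neuroblast markers 1 was raised, near the 12.4% of all tested genes called higher in ICH against sham. Of 6 ependymal and choroid plexus markers 0 were raised by edgeR, DESeq2 or limma-voom, and 0 had an unadjusted p under 0.05. The summed monocyte and macrophage markers ran from 11.9 to 18.9 CPM in sham, from 113 to 206 CPM after ICH and from 206 to 420 CPM with NYKD. Microglial markers summed to 521 to 668 CPM in sham, 525 to 1290 CPM after ICH and 967 to 1700 CPM with NYKD. Oligodendrocyte precursor markers summed to 516 to 720 CPM in sham, 242 to 932 CPM after ICH and 654 to 1111 CPM with NYKD. Endothelial markers summed to 193 to 252 CPM in sham, 293 to 397 CPM after ICH and 336 to 483 CPM with NYKD. Pericyte and fibroblast markers summed to 218 to 309 CPM in sham, 239 to 869 CPM after ICH and 461 to 1937 CPM with NYKD. In NYKD against ICH, edgeR and limma-voom called 0 markers of these summed lists in either direction, and DESeq2 raised 1 of 7 endothelial markers. Over all 18052 tested genes, 4185 had an unadjusted p under 0.05 in NYKD against ICH by edgeR. Such a p was seen for 5 of 7 endothelial and 3 of 8 pericyte and fibroblast markers. The count was 2 of 7 for oligodendrocyte precursor, 1 of 8 for microglial and 0 of 7 for tested monocyte and macrophage markers. Of 8 lymphocyte and natural killer markers, Cd4 alone passed the filter, and among the others Cd3d was at 0 counts in 8 of 15 libraries, Ms4a1 in 10 and Nkg7 in 10. Cd4 averaged 37.8 ± 17.7 CPM in sham, 21 ± 18.3 CPM after ICH and 6.49 ± 6.58 CPM with NYKD (SD, n = 5), and was lowered in NYKD against sham, with a log2 fold change of -2.54 ± 0.83 (SE; adjusted p = 0.0387).

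Of 8 neuron markers, 0 were called in ICH against sham by edgeR (1 at an unadjusted p under 0.05), 1 was lowered by DESeq2 and 0 were called by limma-voom. In NYKD against sham 3 were lowered, Tac1, Drd2 and Ppp1r1b, with a list median of -1.99, and the count was 6 with DESeq2 and 5 with limma-voom or without ICH replicate 4. The members that edgeR did not call differed in size. Snap25 averaged 1320 CPM in sham, 845 after ICH and 902 with NYKD, and Syt1 838, 575 and 716 CPM. In the same order Rbfox3 averaged 163, 102 and 83.6 CPM, Drd1 150, 72.6 and 33 CPM and Penk 848, 535 and 215 CPM. In NYKD against ICH, edgeR called 0 of the 8. Ppp1r1b, high in striatal neurons, averaged 524 ± 522 CPM after ICH and 187 ± 155 CPM with NYKD (SD, n = 5), beside its sham level given above. The 8 markers summed to 2936 to 5927 CPM in sham, 1862 to 4457 CPM after ICH and 1035 to 3059 CPM with NYKD, and 1 NYKD library lay inside the sham range. The part of these cell types in the levels of the 44 genes was not tested.

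NYKD was compared with ICH to find the effect of the decoction on injured tissue. None of the 44 genes passed: edgeR called 0 higher and 0 lower, 0 had an unadjusted p under 0.05, and DESeq2 and limma-voom also called 0. Of all 18052 tested genes, 4185 had an unadjusted p under 0.05 in edgeR. Across all tested genes 1.19% were called higher and 2.27% lower, 3.46% in all. The raised share of those calls was 34.4% under TMM, 41.34% under RLE and 20.14% under library totals. The ICH libraries enter this comparison and ICH against sham. The median log2 fold change was 0.13 over S-phase genes and 0.13 over mitotic genes, against -0.012 over all tested genes, with standard errors of single genes from 0.15 to 0.38 in S phase and from 0.31 to 0.51 in mitosis. The log2 fold changes ran from -0.26 for Kif23 to 0.48 for Mcm2, and 29 of 44 were positive. Without ICH replicate 4 the medians were 0.04 and -0.14, 20 of 44 were positive and 0 were called. Without ICH replicate 3, the highest ICH library, all 44 were positive and 0 were called. For 0 of the 44 genes did all NYKD libraries exceed all ICH libraries, against 2.55% of all tested genes, or 3.21% with ICH replicate 4 left aside, when it was also 0.

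**Figure D4:**
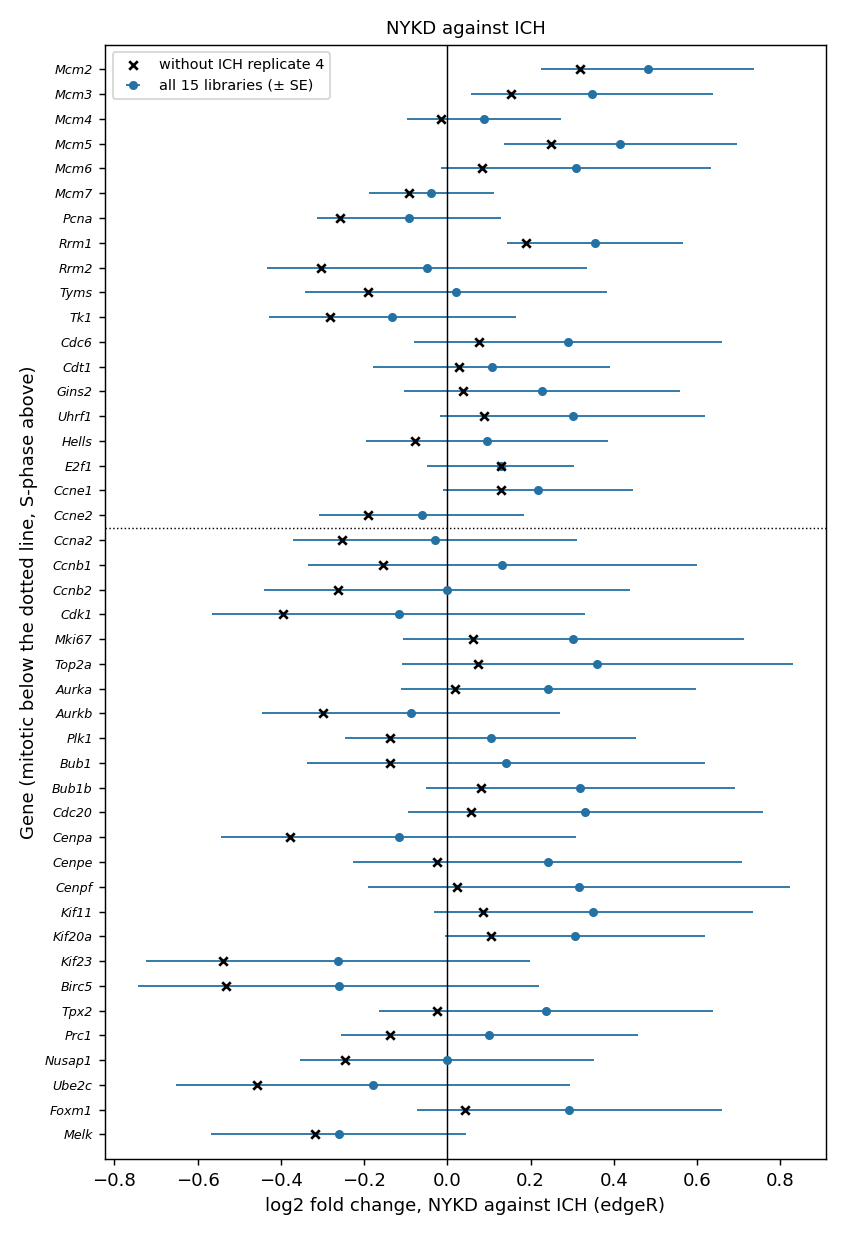
Log2 fold change of each of the 44 genes in NYKD against ICH from edgeR, with all 15 libraries (circles, bars ± SE) and without ICH replicate 4 (crosses). The circles lie between -0.26 and 0.48, and the crosses lie to the left of them or level with them.

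The S-phase genes with the smallest p in NYKD against ICH were Mcm2, Rrm1 and Mcm5, whose values by library stand above. NYKD replicates 3 and 5 were above the highest ICH library for each of these 3, and the other NYKD libraries lay among the ICH libraries. The log2 fold change was 0.48 ± 0.26 for Mcm2 (adjusted p = 0.275), 0.35 ± 0.21 for Rrm1 (adjusted p = 0.331) and 0.42 ± 0.28 for Mcm5 (adjusted p = 0.389). Without ICH replicate 4 they were 0.32, 0.19 and 0.25. The mitotic genes with the smallest p were Kif20a, Kif11 and Bub1b, with 0.31 ± 0.31, 0.35 ± 0.38 and 0.32 ± 0.37 (adjusted p = 0.588, 0.619 and 0.641). Leaving out ICH replicate 4 brought them to 0.11, 0.09 and 0.08. For Mki67 the value was 0.30 ± 0.41 (adjusted p = 0.696), and 0.06 without that library. Negative values were largest for Kif23, -0.26 ± 0.46, Melk, -0.26 ± 0.31, and Birc5, -0.26 ± 0.48, with adjusted p of 0.772, 0.647 and 0.787. These became -0.54, -0.32 and -0.53 without ICH replicate 4. The values nearest 0 were those of Ccnb2 and Nusap1, both 0.00 when rounded.

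In NYKD against sham, which shares the sham libraries with ICH against sham, 41 of 44 genes rose and 0 fell, and E2f1, Ccne1 and Ccne2 were again the ones not called. Across all tested genes 15.3% were called higher and 8.08% lower. The median log2 fold change was 1.85 over S-phase and 2.54 over mitotic genes. All 5 NYKD libraries lay above all 5 sham libraries for 41 of 44 genes, against 13.9% of all tested genes. The largest value was that of Ccnb1, 3.30 ± 0.52 (adjusted p = 0.000377), followed by Top2a, 3.23 ± 0.52 (adjusted p = 0.000428). The smallest among the genes that rose was Mcm7, 0.74 ± 0.15 (adjusted p = 0.00221). The 44 genes took 0.0919% to 0.173% of the counts of the NYKD libraries. NYKD replicate 5 was the highest NYKD library for 40 of the 44 genes, and the lowest was NYKD replicate 4 for 24 genes and NYKD replicate 1 for 18.

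**Figure D5:**
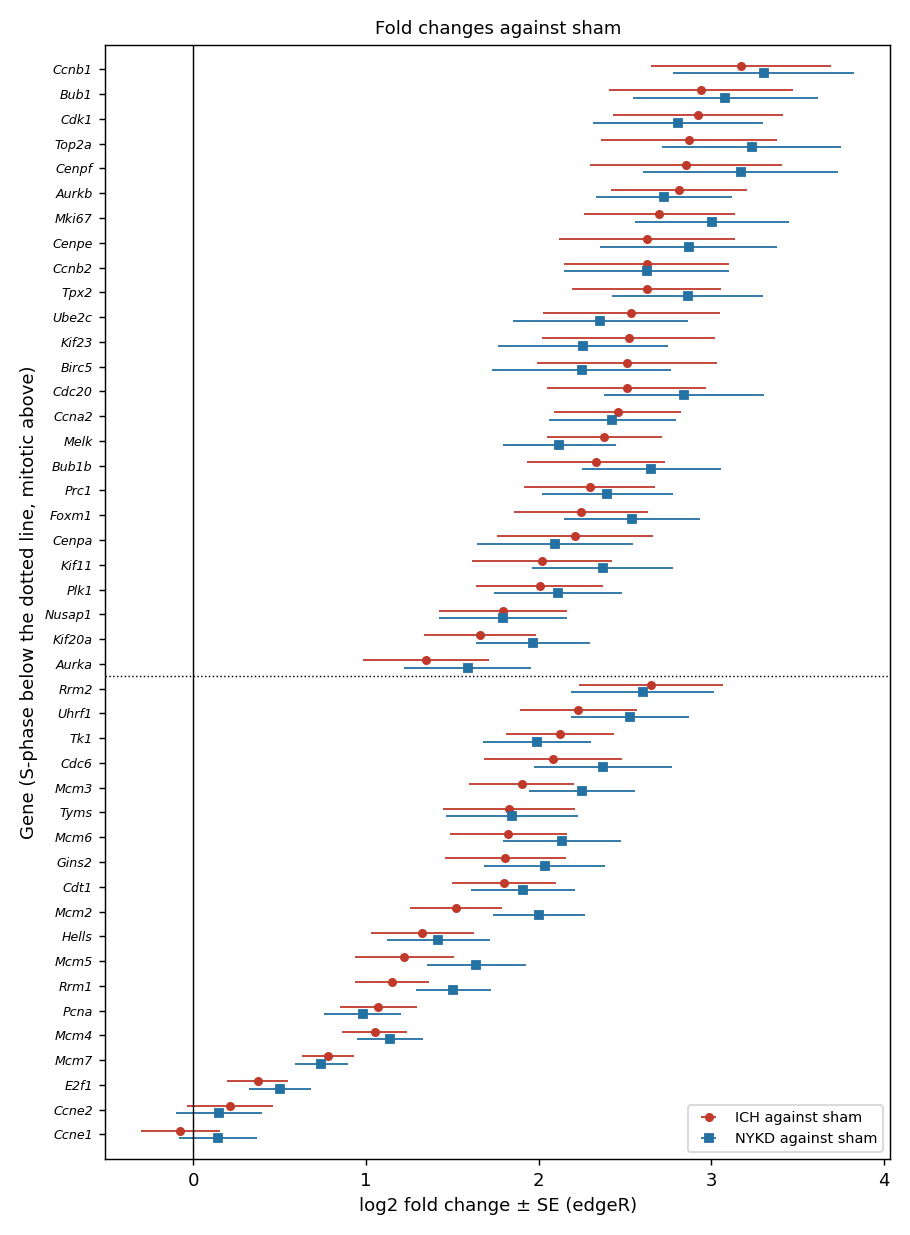
Log2 fold change ± SE of each gene against sham from edgeR, for ICH (red circles) and NYKD (blue squares), with mitotic genes above the dotted line and S-phase genes below it, each sorted by the ICH value. Both groups run from Ccnb1 (3.17 and 3.30) down to Ccne1 (-0.08 and 0.14), and both comparisons use the same 5 sham libraries.

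Lists of related genes were counted in the same fit, in which 12.4% of all tested genes were raised in ICH against sham. The share was 15.3% in NYKD against sham. Of 41 other mitosis genes, 39 were raised in ICH against sham and 0 lowered, with a list median of 2.28. The smallest p were those of the kinesin Kif2c, 2.58 ± 0.32 (adjusted p = 8.98e-05), the kinesin Kif18b, 3.20 ± 0.44 (adjusted p = 0.000221), the cohesion factor Cdca5 (sororin), 2.99 ± 0.44 (adjusted p = 0.000313), and Cdca3, 2.77 ± 0.46 (adjusted p = 0.00084). The exceptions, chosen after their values were seen, were Anln, a scaffold of the cytokinetic ring also made by oligodendrocytes, at -0.03 ± 0.25 (adjusted p = 0.945), and Pttg1, securin, at 0.13 ± 0.18 (adjusted p = 0.663). In NYKD against sham 37 of the 41 were raised. In NYKD against ICH 0 were called in either direction by edgeR, DESeq2 or limma-voom. In edgeR 2 of them had an unadjusted p under 0.05 in NYKD against ICH, beside 4185 of all 18052 tested genes. There the smallest adjusted p was that of Bora, an activator of Polo-like kinase, at -0.91 ± 0.30 (adjusted p = 0.0869).

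Of 34 other replication genes, 22 were raised in ICH against sham, with a list median of 0.85, below that of the mitosis list. Among those with the smallest p were Cdc45 of the active helicase, 1.98 ± 0.27 (adjusted p = 0.000213), the chromatin assembly subunit Chaf1b, 2.30 ± 0.37 (adjusted p = 0.000589), and Mcm10, 2.10 ± 0.36 (adjusted p = 0.000861). In NYKD against sham 20 were raised and 1 was lowered, where 15.3% of all tested genes were called higher and 8.08% lower. The lowered gene was Dut, which hydrolyses dUTP, at -0.41 ± 0.14 (adjusted p = 0.0421). In NYKD against ICH 1 of 34 was lowered and 0 raised, where 2.27% of all tested genes were called lower. The lowered gene was Orc6, a subunit of the origin recognition complex. It averaged 14.96 ± 1.12 CPM with NYKD and 23.2 ± 2.97 CPM after ICH (SD, n = 5), a log2 fold change of -0.64 ± 0.13 (adjusted p = 0.0315). The adjusted p of Orc6 was above 0.05 when ICH replicate 3, 4 or 5 or NYKD replicate 1, 3, 4 or 5 was left out, and ran from 0.00766 to 0.0918 when each library was left out in turn, with log2 fold changes from -0.67 to -0.55. It was also above 0.05 with no low-count filter (0.0731) and with the replicate block (0.0726). That of Dut ran from 0.0285 to 0.115 in the same way and was above 0.05 without sham replicate 1, 2, 3 or 5, ICH replicate 5 or NYKD replicate 1, 2, 3 or 5. The call of Dut was also lost with library totals in place of TMM scaling (0.0587), with no low-count filter (0.175) and with the replicate block (0.0764).

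Of 22 G1 cyclins, E2F factors, pocket proteins and their partners, 11 were raised in ICH against sham, 11 in NYKD against sham and 0 in NYKD against ICH, with 0 lowered in each (edgeR). In NYKD against ICH 3 had an unadjusted p under 0.05, beside 4185 of all 18052 tested genes, and DESeq2 and limma-voom also called 0. The leading genes after ICH were Cdk2, the kinase partner of cyclin E, 1.83 ± 0.24 (adjusted p = 0.000135), cyclin D1 (Ccnd1), 1.93 ± 0.27 (adjusted p = 0.000269), its partner Cdk6, 1.39 ± 0.20 (adjusted p = 0.0003), and the pocket protein p107 (Rbl1), 1.89 ± 0.34 (adjusted p = 0.00145). Among the E2F family, named after their values were seen, the activator E2f2, 1.47 ± 0.28 (adjusted p = 0.00204), and the repressors E2f7, 2.17 ± 0.48 (adjusted p = 0.0049), and E2f8, 2.10 ± 0.47 (adjusted p = 0.00577), were raised, and E2f3 was at 0.18 ± 0.12 (adjusted p = 0.321). Across all tested genes 12.4% were raised in ICH against sham and 15.3% in NYKD against sham. Of 11 inhibitors of cyclin-dependent kinases and antiproliferative genes, 4 were raised in ICH against sham and 4 in NYKD against sham. In NYKD against ICH 0 were called by edgeR, DESeq2 or limma-voom, and 0 had an unadjusted p under 0.05 in edgeR. Those raised after ICH were Cdkn2c, 1.76 ± 0.38 (adjusted p = 0.00444), Cdkn2a, 2.88 ± 0.71 (adjusted p = 0.00994), Trp53, 0.62 ± 0.16 (adjusted p = 0.0138), and Cdkn2b, 1.20 ± 0.37 (adjusted p = 0.0328). Cdkn2a rests on few counts, with 0.126 ± 0.149 CPM in sham and 0.955 ± 0.528 CPM after ICH (SD). In NYKD against sham Trp53 was not called, at 0.29 ± 0.16 (adjusted p = 0.206), and Ccng1 was raised, at 0.80 ± 0.25 (adjusted p = 0.0308).

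Some counts may be shared between genes. The sources used here do not say whether the counting used strand, and without strand reads of a gene and of an overlapping gene on the opposite strand cannot be told apart. Such protein-coding neighbours were Cops6 and Ap4m1 for Mcm7, Afmid for Tk1, Gse1 for Gins2, Ints8 for Ccne2, Exosc9 for Ccna2, Elovl1 for Cdc20, Cdc23 for Kif20a, Rccd1 for Prc1, Oip5 for Nusap1 and Tnnc2 for Ube2c. For Mcm7, Cops6 held 22019 counts over the 15 libraries against 6548 of Mcm7, so the level of Mcm7 is uncertain. Gse1 held 7337 counts against 1306 of Gins2, and Exosc9 held 5504 against 5357 of Ccna2. Ints8 held 7753 counts against 2963 of Ccne2, Cdc23 held 11389 against 2443 of Kif20a and Elovl1 held 10902 against 3094 of Cdc20. The levels of Gins2, Ccna2, Ccne2, Kif20a and Cdc20 are uncertain in the same way. Foxm1 overlaps Tex52 on the same strand. Pseudogene copies held 252 counts for Pcna against 19098 of the gene, 78 for Ccnb1 against 5637 and 1 for Tyms against 1730.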

How the data were processed

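The authors deposited raw counts per Ensembl gene, 1 column per mouse. Per the submitters' processing notes, the tools were HISAT2 2.0.5 and edgeR 3.22.5 and the build was mm10. The sources used here do not give the counting program, annotation release or strandedness.

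Groups came from the sample titles. Symbols and coordinates came from GENCODE mouse release M21, and promoters from RefSeq. Genes were filtered with filterByExpr, which kept 18052, and scaled by TMM. A quasi-likelihood fit in edgeR 4.0.16 (R 4.3.3), with robust dispersions and no covariate, took all 15 libraries. A gene was called when its p, adjusted over all tested genes by Benjamini-Hochberg, was under 0.05. The standard error, taken as the size of the log2 fold change divided by the root of F, is approximate. RPKM used union exon lengths. Log2 CPM used a prior count of 2. The fit was also run on simulated counts with equal shifts in all libraries of a group, and no result here rests on that run.

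The members, classes, related lists, markers and motifs were chosen with earlier results of these data known, so no list was tested. Values in every library are given for a fixed set of 20 members and for those with the smallest and largest p in each class and comparison, which came to 31 genes. Of each related list, the members called lower and up to 4 with the smallest p are named. Some genes that these rules name are left out of the text.

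Alternatives were RLE size factors, library totals, 2 other count filters, DESeq2 1.42.0, limma-voom (limma 3.58.1), dispersions without robust estimation, fits to the 2 compared groups, a replicate block and the omission of each library. Reading each member without ICH replicate 4 and leaving out promoter windows inside annotated genes were chosen after seeing the data. Each library is labelled as a separate mouse, and no libraries were duplicates by a chi-square comparison of their counts.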

Additional observations from a re-analysis of the deposited data

Results flagged for a closer look

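In each group of 5 libraries, the library farthest from the others was compared with the group's whole range on the log2 CPM scale (Dixon's test, critical value 0.71). Of 138 groups examined 8 had a library set apart, and chance alone marks about 1 in 20 groups.

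In ICH replicate 4 Plk1 was low, at 2.0 against 3.97 to 4.58 in the other ICH libraries. Cdc20 was low there too, at 1.12 against 3.83 to 4.83, and so was Cenpf, at 1.17 against 4.41 to 5.67. In sham replicate 5 Mki67 was at 2.55 against 3.91 to 4.40 in the other sham libraries, and Kif23 was at 0.07 against 1.46 to 1.95. Tyms in sham replicate 3 was at 0.28 against 1.48 to 1.84, and Melk in sham replicate 1 was at 0.07 against 1.12 to 1.18. Ccne2 in NYKD replicate 4 was high, at 4.20 against 3.39 to 3.51 in the other NYKD libraries.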

How the results depend on the processing

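Over all settings, 40 or 41 members were raised in ICH against sham and 41 or 42 in NYKD against sham, 0 were lowered, and 0 were called in NYKD against ICH. Aurka in ICH against sham (limma-voom, replicate block, without sham replicate 3 or ICH replicate 3) and E2f1 in NYKD against sham (1 CPM filter, DESeq2, without ICH replicate 4, NYKD replicate 1 or NYKD replicate 4) were the members whose call changed, and no called value changed sign. Leaving out each library gave S-phase medians of 1.36 to 1.69 and mitotic medians of 2.12 to 2.79 in ICH against sham, 0.04 to 0.34 and -0.14 to 0.39 in NYKD against ICH, and 1.65 to 1.98 and 2.37 to 2.68 in NYKD against sham.

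The number of genes called over the whole table moved more. In NYKD against ICH it was 625, and it was 1734 with DESeq2, 387 with limma-voom and 0 to 1508 when each library was left out in turn. It was 0 without ICH replicate 5 or NYKD replicate 1, 3 or 5, 1 without ICH replicate 4, 9 without NYKD replicate 4, 241 without sham replicate 3, 300 without sham replicate 2, 1494 without sham replicate 5 and 1508 without ICH replicate 1. In NYKD against sham it was 4225, and 2810 without NYKD replicate 5 to 4784 without ICH replicate 4. In ICH against sham it was 3062, and 2127 to 3270. The cause was not tested.

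Replicate numbers are shared between groups, but the deviations of same-numbered libraries correlated at -0.31 to 0.24, above 0.1 in 4 of 15 pairs, so the numbers were not taken as pairs. With the replicate block 0 genes were called in NYKD against ICH (edgeR; 3602 at an unadjusted p under 0.05), and 40 members were raised in ICH against sham and 41 in NYKD against sham.

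Members with under 1 CPM in some sham libraries, such as Cdc6 and Bub1, rest on few counts. With 5 libraries per group, standard errors of 0.15 to 0.51 leave small differences between NYKD and ICH unresolved.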
